A study of Mus musculus with 6 samples.

Results

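A block of 130 genes, known in the array's probe list by RIKEN clone numbers running from 4933400A11Rik to 4933440M02Rik, was compared between control and *Mgat1* conditional knockout (cKO) testicular germ cells. Clones of this series were sequenced from a mouse testis cDNA library, and the number records the order in the library, not a position in the genome. A member is a gene whose symbol begins with a clone number in this range and ends in Rik, and the rule used no measured value. The members made up 130 of the 23152 genes measured, and 799 probe sets, with 1 to 29 (median 5) for each gene. All 130 were found in the RefSeq gene table, 98 still under the clone number and 32 under another name. In that annotation 48 members encode a protein, 76 are long noncoding RNAs (lncRNAs) and 6 are pseudogenes, and 8 lie on the X chromosome.

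Germ cells came from 3 control males carrying floxed *Mgat1* alleles without Cre (*Mgat1*[F/F]) and from 3 *Mgat1* cKO males, in which the Stra8-iCre transgene deletes *Mgat1* in spermatogonia. All mice were 22 days post-partum (dpp) and of FVB background, 1 mouse for each array, with no pooling. *Mgat1* encodes GlcNAcT-I, a Golgi enzyme that opens the route to complex N-glycans. The signals are log2 values, so a difference of 1 is a doubling. Isolated germ cells were a mixture of stages, and a change in the number of cells of a stage and a change in RNA per cell cannot be told apart in these arrays.

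The mouse testis transcribes an unusually large part of the genome, including many lncRNAs and pseudogenes with no described function. Much of this transcription begins in pachytene spermatocytes and round spermatids, the haploid cells that follow meiosis. At the age examined, the first wave of spermatogenesis has just produced round spermatids. Libraries made from testis RNA are therefore rich in transcripts of late germ cells, and genes first seen in such a library often carried only a clone number for years.

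Arrays of the same genotype correlated at 0.992 to 0.994 over the genes measured, and arrays of different genotypes at 0.950 to 0.970. *Mgat1* itself had signals of 6.91, 7.003 and 6.82 in control and 6.87, 6.69 and 6.80 in *Mgat1* cKO germ cells (log2 fold change -0.13, adjusted p = 0.356). Where its probe sets lie with respect to the floxed region is unknown. The value is the mean of 12 probe sets, so a loss limited to some of them could be hidden. The paper reports a strong drop of *Mgat1* transcripts by qRT-PCR in mutant germ cells of this age. It also found only deleted alleles in their genomic DNA. Of 10 marker genes for each stage, 10 of the round spermatid list and 10 of the elongating spermatid list were raised, with median log2 fold changes of 1.73 and 3.29, while 6 of the meiotic prophase list and 2 of the spermatogonia list were lowered and 0 of either was raised. The summed round spermatid level was 12.26 to 12.51 in control and 13.79 to 13.96 in *Mgat1* cKO arrays, and the summed elongating spermatid level was 11.07 to 11.19 and 13.77 to 14.08. The pachytene list was mixed, with 5 of 10 raised and 2 lowered. Among somatic lists 4 of 10 Sertoli, 6 of 10 peritubular, 4 of 9 macrophage, 2 of 7 Leydig and 1 of 7 endothelial markers were lowered, and 0, 0, 1, 1 and 2 of them raised. Over all genes measured 13.3% were raised and 18.4% lowered. The lowered counts of the spermatogonia and endothelial lists were near that share. The summed levels of the pachytene list (14.24 to 14.32 in control and 14.28 to 14.36 in *Mgat1* cKO arrays) overlapped between the genotypes. So did those of the Leydig and endothelial lists, while the other lists named here did not overlap. The part of these levels in the results below was not tested. The marker lists were chosen with earlier results of these data known, so their counts are not an independent reading of stage.

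Transcripts of many clone genes were higher in *Mgat1* cKO germ cells. By limma, with p adjusted over all 23152 genes and a threshold of 0.05, 62 of the 130 members (47.7%) were raised, where 13.3% of all genes were raised. Another 10 members (7.69%) were lowered, against 18.4% of all genes, and 58 did not pass. Large changes were all rises: 30 members (23.1%) rose at least 2-fold (4.18% of all genes did) and 14 at least 4-fold (1.07% of all genes), while 0 fell at least 2-fold (0.488% of all genes). The median log2 fold change was 0.31 over the members and -0.02 over all genes. The middle 50% of members lay between 0.01 and 0.89, and 99 of 130 values were above 0. All 3 *Mgat1* cKO arrays lay above all 3 control arrays in 68 members (52.3%, against 20.1% of all genes) and below them in 18 (13.8%, against 26.6%).

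**Figure D1:**
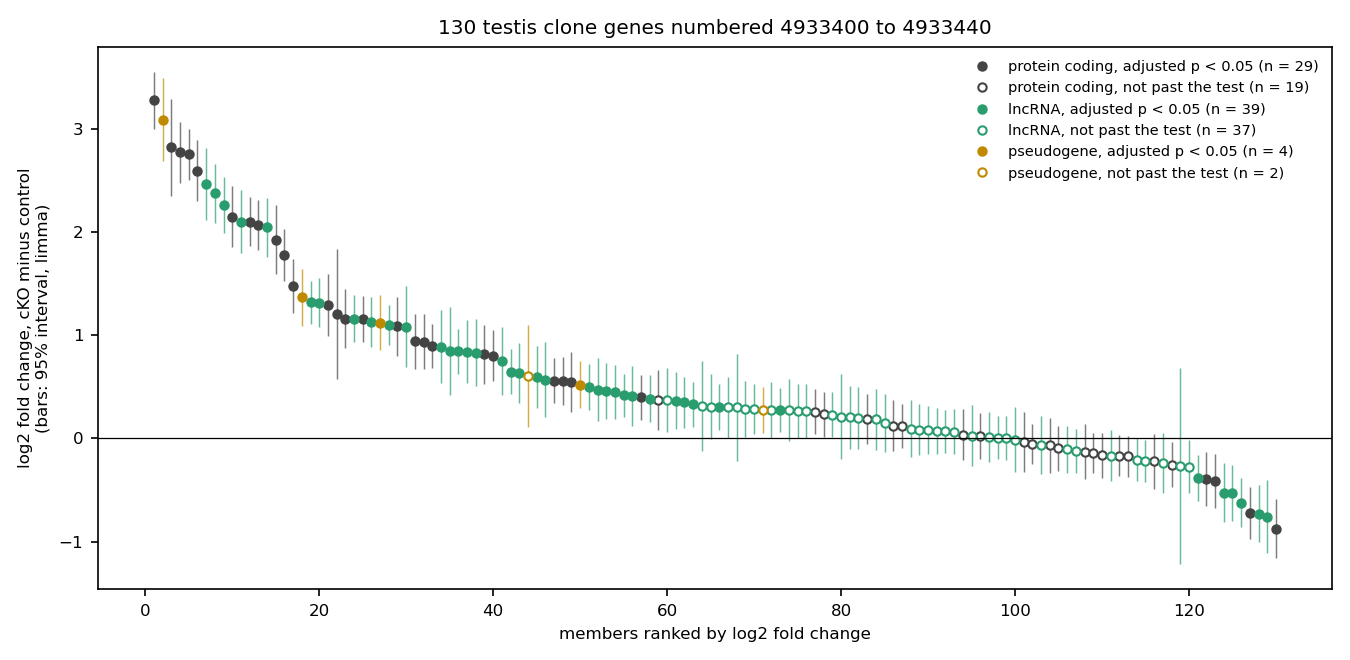
Log2 fold change (cKO minus control, vertical axis) of each of the 130 members, ranked along the horizontal axis, with the 95% interval from limma, n = 3 arrays per group. Color gives the RefSeq class and filled points passed the test. Values ran from 3.27 down to -0.87, with 62 members raised and 10 lowered.

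The shift was seen on every mutant array. Over the members the median signal was 7.06, 6.97 and 7.16 on the control arrays and 7.66, 7.66 and 7.68 on the *Mgat1* cKO arrays. Each mutant array thus lay above each control array. Among the 62 raised members, *Mgat1* cKO replicate 1 was the highest of the 3 mutant arrays in 48, replicate 2 in 5 and replicate 3 in 9. Replicate 1 was also the lowest mutant array in 7 of the 10 lowered members. Without it, 55 members were raised and 9 lowered.

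Clones of testis libraries outside this range were raised more often than the members, a difference that was not tested. Of 933 other testis library clones 506 (54.2%) were raised, 291 (31.2%) of them at least 2-fold, and 79 (8.47%) lowered, with a median log2 fold change of 0.44. Of 1489 clones numbered from all other libraries 144 (9.67%) were raised and 192 (12.9%) lowered, with a median of 0.02. The 130 members were thus nearer to the other testis clones, which had the higher median, than to clones of other origin.

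**Figure D2:**
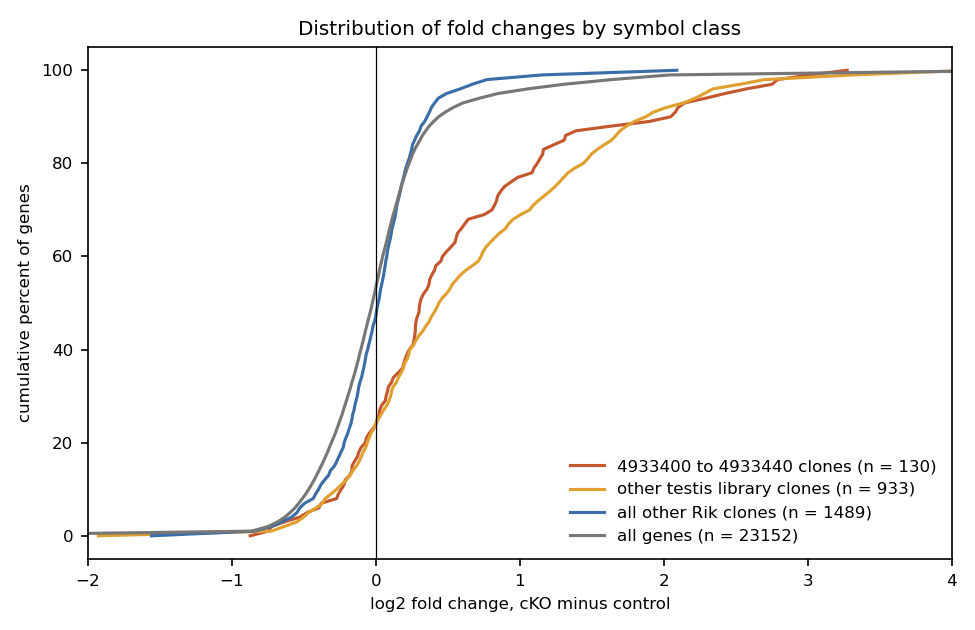
Cumulative percent of genes (vertical axis) at or below each log2 fold change (cKO minus control, horizontal axis, shown from -2 to 4) for the members, other testis library clones, all other Rik clones and all genes. The curve of the 130 members (median 0.31) ran beside that of the 933 other testis clones (median 0.44), and that of the 1489 other clones (median 0.02) beside that of all genes (median -0.02).

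Rises were found in each class of transcript. Among protein-coding members 25 of 48 (52.1%) were raised and 4 lowered, with a median of 0.47, where 12.7% of all protein-coding genes were raised and 19.7% lowered. Among lncRNA members 33 of 76 (43.4%) were raised and 6 lowered, with a median of 0.29. Of all lncRNAs 21.5% were raised and 8.36% lowered, so that the lowered share of the members (7.89%) was near that of the class. Of the 6 pseudogenes 4 were raised and 0 lowered, where 13.9% of all pseudogenes were raised and 8.37% lowered. A change of at least 2-fold was reached by 16 coding members (33.3%), 11 lncRNAs (14.5%) and 3 pseudogenes, against 3.88%, 7.77% and 5.70% of all genes of these classes. Members that have since received a name were raised in 14 of 32 cases and those still called by number in 48 of 98.

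Among the largest rises of renamed coding members, *Spem2* and *Stpg3* carry names that refer to spermatids or sperm. *Trim80* (4933422H20Rik, chromosome 11), of the tripartite motif family that includes many ubiquitin ligases, had signals of 6.64, 6.53 and 6.74 in control and 10.15, 9.74 and 9.83 in *Mgat1* cKO arrays. The groups lay far apart, and the rise of 9.68-fold (log2 3.27 ± 0.12, SE, adjusted p = 6.39e-07) was the largest of the 130. *Sppl2c* (4933407P14Rik, chromosome 11), an intramembrane protease of spermatids, went from 6.78, 6.23 and 6.92 to 9.87, 9.29 and 9.22, a 7.05-fold rise. Control replicate 2 was its lowest array. *Spem2* (4933402P03Rik, chromosome 11), which takes its name from the spermatid maturation gene *Spem1*, had 6.62, 6.44 and 6.62 in control and 9.62, 9.22 and 9.15 in mutant arrays, a 6.83-fold rise. *Stpg3* (4933433C11Rik, chromosome 2), named for a repeat of sperm tail proteins, went from 8.02, 7.81 and 8.13 to 10.81, 10.50 and 10.42, a 6.04-fold rise. In all 4 the lowest mutant array stood above the highest control array by more than either group's range.

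*Mgat4f* (4933406M09Rik, chromosome 1) belongs by its name to the MGAT4 family, whose known enzymes add a branch to complex N-glycans after MGAT1 has acted. Its signals were 5.86, 6.06 and 5.99 in control and 8.22, 7.61 and 7.86 in *Mgat1* cKO arrays. The rise was 3.80-fold (log2 1.93 ± 0.15, SE, adjusted p = 1.26e-05), and each of its 5 probe sets was raised, by 1.44 to 2.31 on the log2 scale.

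Coding members that still carry only their clone number were also among the largest rises. 4933411K16Rik (chromosome 19) went from 8.44, 8.65 and 8.63 to 11.49, 11.20 and 11.27, a 6.73-fold rise (adjusted p = 6.96e-07). 4933405O20Rik (chromosome 7) had 8.54, 8.22 and 8.65 in control and 10.80, 10.51 and 10.54 in mutant arrays, a 4.43-fold rise that rests on 1 probe set. 4933417A18Rik (chromosome 13) rose 4.28-fold and 4933402J07Rik (chromosome 8) 4.19-fold. No function is given for these 4 in the tables used here. Their groups did not overlap, which is largely built in for genes chosen among the largest rises.

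**Figure D3:**
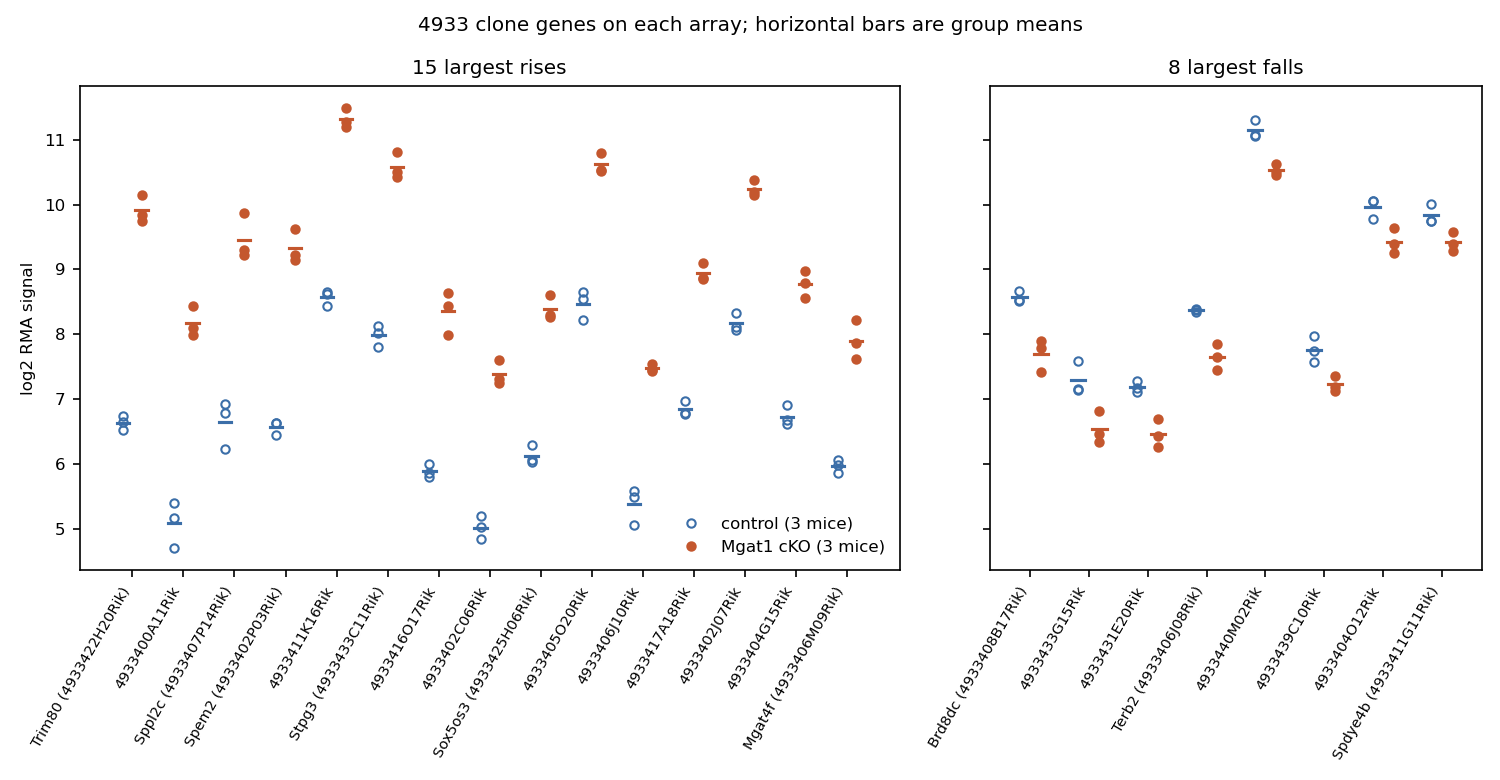
Log2 RMA signal (vertical axis) of the 15 members with the largest rises and the 8 with the largest falls on each array, control as open and *Mgat1* cKO as filled points, with the group means as bars (n = 3 each). The groups did not overlap in any of the 23 genes, and the rises (1.93 to 3.27) were larger than the falls (-0.41 to -0.87). Separation was largely built in, since the genes were chosen for large changes among those called.

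Noncoding members held 6 of the 15 largest rises. The transcribed pseudogene 4933400A11Rik on the X chromosome had 4.70, 5.16 and 5.39 in control and 8.43, 7.99 and 8.10 in *Mgat1* cKO arrays, an 8.51-fold rise (log2 3.09 ± 0.18, SE, adjusted p = 2.62e-06). Control replicate 1 was its lowest array. All 6 of its probe sets were raised, by 2.53 to 3.64. The lncRNAs among the 15 were 4933416O17Rik (chromosome 13, 5.53-fold), 4933402C06Rik (chromosome 7, 5.18-fold), *Sox5os3* (4933425H06Rik, chromosome 6, 4.80-fold), 4933406J10Rik (chromosome 7, 4.29-fold) and 4933404G15Rik (chromosome 16, 4.13-fold). *Sox5os3* is an opposite-strand transcript at *Sox5*, which encodes a transcription factor with a short form in the testis. It went from 6.03, 6.06 and 6.28 to 8.60, 8.27 and 8.29. 4933416O17Rik went from 6.003, 5.85 and 5.80 to 8.63, 7.98 and 8.44, with replicate 2 the lowest of its mutant arrays.

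A further 15 members rose at least 2-fold, and those of them not described elsewhere are given here, named after their values were seen. The coding 4933424G06Rik (chromosome 1) went from 8.62, 8.58 and 8.85 to 10.35, 10.06 and 10.07, a 2.78-fold rise. The pseudogene 4933411G06Rik (chromosome 10) went from 5.56, 5.83 and 5.86 to 7.30, 7.09 and 6.96, a 2.58-fold rise. Both had groups far apart. The coding 4933402N03Rik (chromosome 7) rose 2.30-fold with the widest control spread of the 130 members, at 5.04, 4.66 and 3.86 in control and 5.55, 6.15 and 5.47 in mutant arrays (adjusted p = 0.0103). Neither of the 2 probe sets of 4933402N03Rik was called raised by limma over all probe sets (0.41, adjusted p = 0.614, and 1.99, adjusted p = 0.0645). The coding 4933402D24Rik (chromosome 1) rose 2.12-fold, with 1 of its 5 probe sets called raised. The lncRNAs in this group were 4933433G08Rik (chromosome 9, 2.49-fold), 4933407I05Rik (chromosome 9, 2.18-fold), 4933416M06Rik (chromosome 13, 2.14-fold) and 4933400F21Rik (chromosome 1, 2.12-fold). Of the 62 raised members 44 rose at least 1.5-fold, and the rest had smaller rises down to 0.27 on the log2 scale.

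The 8 X-linked members, named after their values were seen, were raised in 6 cases and lowered in 1, where 20.4% of all X-linked genes were raised and 19.8% lowered. Besides 4933400A11Rik, 4933436I01Rik rose 3.43-fold, 4933403O08Rik 2.45-fold, the pseudogene 4933401B06Rik 2.17-fold on 1 probe set and 4933416I08Rik 1.76-fold. 4933407K13Rik rose by 0.37 (log2), a call lost without control replicate 2 or 3 or mutant replicate 1 or 2 (adjusted p = 0.118 to 0.153), and 4933402E13Rik fell by 0.39. The eighth, the pseudogene 4933416E14Rik, had 0.28 (adjusted p = 0.0599). Among the 122 members on autosomes 56 (45.9%) were raised and 9 lowered.

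The falls were smaller. *Brd8dc* (4933408B17Rik, chromosome 18), named for a domain it shares with the chromatin protein BRD8, had 8.67, 8.51 and 8.53 in control and 7.42, 7.79 and 7.89 in *Mgat1* cKO arrays (log2 fold change -0.87 ± 0.13, SE, adjusted p = 0.00101). Replicate 1 was the lowest mutant array. *Terb2* (4933406J08Rik, chromosome 2), part of the complex that attaches telomeres to the nuclear envelope in meiotic prophase, had 8.39, 8.35 and 8.38 in control and 7.45, 7.64 and 7.85 in mutant arrays (-0.72 ± 0.11, adjusted p = 0.00132). Its 3 control arrays differed by less than 0.05, and its lowest mutant array was again replicate 1. *Terb2* was in no marker list. Of 10 markers of meiotic prophase 6 were lowered, where 18.4% of all genes were, and a link of *Terb2* to them was not tested. *Spdye4b* (4933411G11Rik, chromosome 5), of the Speedy/RINGO family that binds and activates cyclin-dependent kinases, went from 10.01, 9.74 and 9.75 to 9.29, 9.40 and 9.58 (-0.41 ± 0.12, adjusted p = 0.0224). It lost its call without control replicate 1 and without mutant replicate 1 or 2.

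The remaining falls were lncRNAs except for the X-linked 4933402E13Rik. 4933433G15Rik (chromosome 9) went from 7.58, 7.15 and 7.14 to 6.34, 6.82 and 6.45 (-0.76, adjusted p = 0.00619). 4933431E20Rik (chromosome 3) went from 7.11, 7.17 and 7.28 to 6.26, 6.69 and 6.43 (-0.73, adjusted p = 0.002). Neither pair of groups overlapped. 4933440M02Rik (chromosome 7) changed by -0.62, 4933439C10Rik (chromosome 11) by -0.53 and 4933404O12Rik (chromosome 5) by -0.53. 4933406C10Rik (chromosome 12), outside the naming rule, completed the 10 at -0.38.

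The other renamed members that passed the test had smaller rises. *Lrif1* (4933421E11Rik), whose product works with heterochromatin proteins, rose by 0.56 (8.54 ± 0.08 to 9.10 ± 0.13, SD, n = 3, adjusted p = 0.00329). *Noxred1* (4933437F05Rik), named for an oxidoreductase domain, rose 2.24-fold, *Mfsd13b* (4933427G17Rik), of the major facilitator family of transporters, 2.23-fold, and *Prkag2os1* (4933426D04Rik), an opposite-strand transcript of an AMP-activated kinase subunit gene, also 2.24-fold. *Spata32* (4933400C05Rik) and *Tex52* (4933413G19Rik), both named for expression in testis, rose 1.92-fold and 1.74-fold, *Erich2* (4933404M02Rik) 1.86-fold and *Ppp1r14bl* (4933415F23Rik) 1.32-fold. The groups did not overlap in any of these 8 genes, which were taken from members that passed the test.

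The 15 renamed members that did not pass included genes of general cell function. *Ints13* (4933424B01Rik), a subunit of the Integrator complex that processes RNA, had 10.96, 10.96 and 10.99 in control and 10.93, 10.86 and 10.95 in mutant arrays (log2 fold change -0.06, 95% interval -0.25 to 0.14). *Cfap97* (4933411K20Rik), associated with cilia and flagella, had -0.17 (-0.37 to 0.02), and *Uvssa* (4933407H18Rik), a factor of transcription-coupled DNA repair, -0.26 (adjusted p = 0.073). *Gskip* (4933433P14Rik), which binds the kinase GSK3B, had 0.12, *Gid4* (4933439F18Rik), the substrate receptor of a ubiquitin ligase, 0.26 and the mitochondrial protein gene *Fam210a* (4933403F05Rik) 0.37. The other values were -0.22 for *Nt5el* (4933425L06Rik), -0.21 for the lncRNA *Crnde* (4933436C20Rik), -0.17 for *Taf7l2* (4933416C03Rik), -0.16 for *Lrrc71* (4933430H15Rik), -0.13 for *Map10* (4933403G14Rik), -0.10 for *Susd6* (4933426M11Rik), -0.07 for *Cmip* (4933407C03Rik), 0.23 for *Fam227a* (4933432B09Rik) and 0.27 for the opposite-strand transcript *Ppp2r2cos* (4933401P06Rik).

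At the threshold the calls separated similar values. Just inside it were 4933407K13Rik (log2 fold change 0.37, adjusted p = 0.0481) and 4933436E23Rik (0.27, adjusted p = 0.0491), and just outside it *Fam210a* (0.37, adjusted p = 0.054) and 4933416E14Rik (0.28, adjusted p = 0.0599). For 4933407K13Rik the groups overlapped, with 6.91, 6.56 and 6.67 in control and 7.21, 7.14 and 6.90 in mutant arrays. 4933436E23Rik lost its call with any 1 array left out. The highest mean signals among the members belonged to the lncRNA 4933432K03Rik (12.07), *Cfap97* (11.35) and *Ints13* (10.94), none of which passed. The lowest belonged to the lncRNAs 4933406D12Rik (4.27), 4933400B14Rik (4.43) and 4933407G14Rik (4.43), of which the first and the third were raised, by 0.42 and 0.45. The call of 4933407G14Rik was lost without control replicate 3 or mutant replicate 1 or 3 (adjusted p = 0.0519 to 0.0553). Signals of different probe sets do not rank transcript amounts, and low signals compress fold changes.

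Each gene value is the mean of its probe sets, so agreement in direction between a gene and its probe sets is partly built in. Fitted over all 269751 probe sets, 204 of the 799 member probe sets were raised (5.19% of all probe sets were) and 23 were lowered (4.11% of all probe sets). Of the 59 raised members with at least 2 probe sets, 45 had higher values on all of them and 13 had all of them called. Of the 10 lowered members 7 had lower values on every probe set. All probe sets were called raised in *Spem2* (4, by 1.78 to 3.41), *Sppl2c* (4, by 2.42 to 3.95), 4933411K16Rik (3, by 2.53 to 3.03), 4933402J07Rik (9, by 1.53 to 2.37) and 4933404G15Rik (6, by 1.37 to 2.48). In *Trim80* 8 of 9 probe sets rose, by 2.54 to 5.24, while the ninth had 7.65, 7.37 and 6.44 in control and 6.87, 6.85 and 7.57 in mutant arrays. That probe set had a log2 fold change of -0.05 with overlapping groups.

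**Figure D4:**
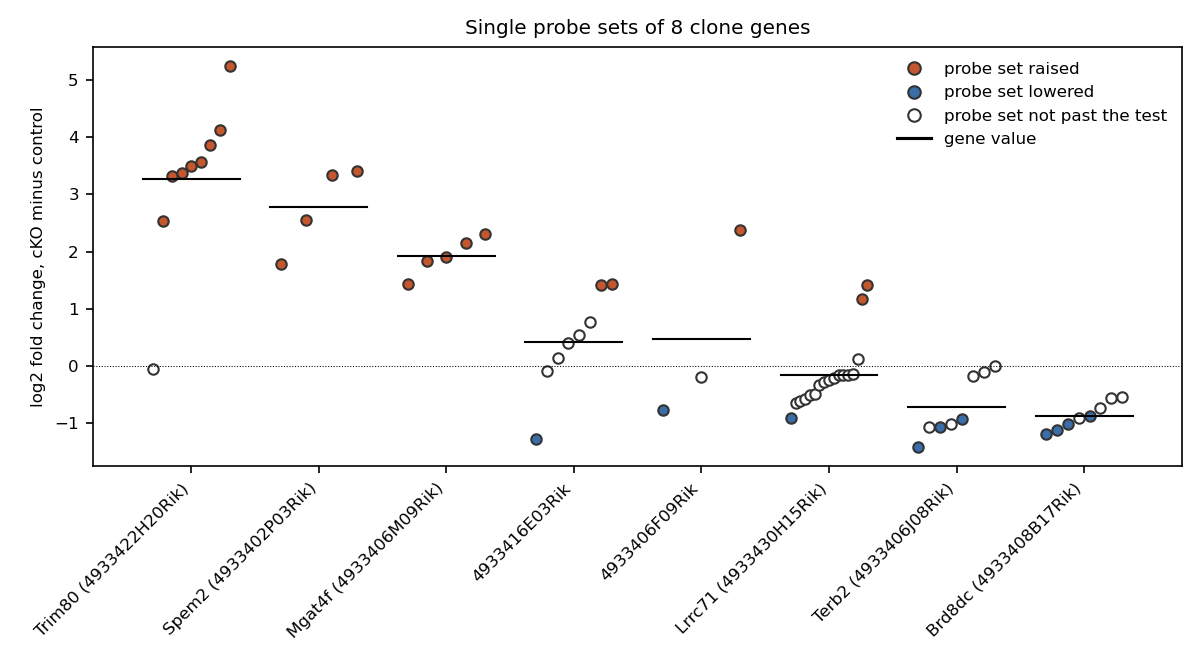
Log2 fold change (cKO minus control, vertical axis) of each probe set of 8 members, colored by its call over all probe sets, with the gene value as a black line. *Spem2* and *Mgat4f* were raised on every probe set, *Trim80* on 8 of 9, and 4933416E03Rik, 4933406F09Rik and *Lrrc71* held probe sets called in opposite directions.

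Probe sets called in both directions occurred in 3 members. 4933406F09Rik (lncRNA, chromosome 14) has 3 probe sets. The first went from 6.11, 5.91 and 6.79 to 8.46, 8.73 and 8.76, a rise of 2.38 (adjusted p = 0.00361). The second went from 11.33, 11.36 and 11.49 to 10.35, 10.59 and 10.92, a change of -0.77 (adjusted p = 0.0493), and the last had -0.19. The gene mean was raised by 0.47 (adjusted p = 0.0249), but the median of its probe sets was lowered, at -0.77 (adjusted p = 0.0101), so that its direction rests on how probe sets are combined. The call of the mean was also lost without control replicate 1 or 2 or mutant replicate 2 or 3 (adjusted p = 0.0583 to 0.0862). 4933416E03Rik (lncRNA, chromosome 2) had 2 of 8 probe sets raised, by 1.43 and 1.41, and 1 lowered, which went from 6.34, 6.67 and 6.40 to 5.30, 5.11 and 5.17 (-1.28). Its gene mean, raised by 0.41, lost the call without control replicate 1 or 3 or mutant replicate 1 or 2 (adjusted p = 0.0781 to 0.122). In *Lrrc71*, a leucine-rich repeat gene, 2 of 17 probe sets were raised, by 1.41 and 1.17, and 1 was lowered (-0.92), beside a gene value of -0.16 that did not pass. *Terb2* was lowered on 3 of 8 probe sets, with values of -1.42 to -0.94, while 3 others lay between -0.18 and -0.01.

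Promoter sequences were available in the RefSeq-derived table (GRCm38.p6) for 104 members, each covering 250 bases before and 50 after the annotated start. They were read for the cAMP response element (CRE, letters TGACGTCA on either strand, a palindrome), the site of CREM, an activator of genes in round spermatids. A complete CRE stood in 2 of 104 member promoters (1.92%) and in 1.88% of all 27025 promoters. Both holders, *Sox5os3* and 4933417D19Rik, were among the 24 members raised at least 2-fold that have a promoter. This rests on 2 promoters and was not tested. Windows with at most 1 base differing from the CRE, a search added after the sequences were seen, stood in 8 of these 24 (33.3%), in 13 of 51 raised members (25.5%), in 6 of 45 members not past the test (13.3%), in 1 of 8 lowered members and in 12.9% of all promoters. The sequences below are those of the 3 largest rises with an entry, of both members with a complete CRE and of the 2 largest falls with an entry. They are written 5′ to 3′ on the strand of the gene, with windows that match the CRE in at least 7 of 8 bases in capitals.
*Trim80*, chr11:115440295-115440594, plus strand: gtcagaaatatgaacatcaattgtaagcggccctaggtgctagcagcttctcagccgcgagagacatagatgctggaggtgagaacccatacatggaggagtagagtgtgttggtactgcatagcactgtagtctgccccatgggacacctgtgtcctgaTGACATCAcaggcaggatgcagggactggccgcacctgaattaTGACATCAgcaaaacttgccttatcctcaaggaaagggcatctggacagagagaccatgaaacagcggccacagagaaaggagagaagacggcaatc
*Sppl2c*, chr11:104186077-104186376, plus strand: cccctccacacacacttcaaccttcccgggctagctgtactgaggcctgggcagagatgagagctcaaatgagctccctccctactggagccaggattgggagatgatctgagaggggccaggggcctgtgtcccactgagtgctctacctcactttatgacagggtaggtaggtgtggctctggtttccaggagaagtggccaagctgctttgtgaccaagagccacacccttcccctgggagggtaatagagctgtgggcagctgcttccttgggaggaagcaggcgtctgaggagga
*Spem2*, chr11:69818414-69818713, minus strand: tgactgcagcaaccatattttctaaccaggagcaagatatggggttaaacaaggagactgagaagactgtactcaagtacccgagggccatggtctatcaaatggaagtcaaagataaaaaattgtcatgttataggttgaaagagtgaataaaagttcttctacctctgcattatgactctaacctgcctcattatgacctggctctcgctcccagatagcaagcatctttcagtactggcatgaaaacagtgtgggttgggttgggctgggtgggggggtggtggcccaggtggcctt
*Sox5os3*, chr6:144672618-144672917, plus strand: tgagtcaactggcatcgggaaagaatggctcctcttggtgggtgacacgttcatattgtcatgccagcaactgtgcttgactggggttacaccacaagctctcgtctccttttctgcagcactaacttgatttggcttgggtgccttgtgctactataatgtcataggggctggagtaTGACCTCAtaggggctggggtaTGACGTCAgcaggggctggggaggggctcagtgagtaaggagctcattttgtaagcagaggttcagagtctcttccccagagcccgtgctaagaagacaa
4933417D19Rik, chr8:123234841-123235140, plus strand: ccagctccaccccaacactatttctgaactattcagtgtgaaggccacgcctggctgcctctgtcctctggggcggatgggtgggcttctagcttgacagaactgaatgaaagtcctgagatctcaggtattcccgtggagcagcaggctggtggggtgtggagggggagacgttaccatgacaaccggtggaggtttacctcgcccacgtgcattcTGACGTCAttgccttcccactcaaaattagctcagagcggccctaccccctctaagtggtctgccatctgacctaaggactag
4933433G15Rik, chr9:75409934-75410233, plus strand: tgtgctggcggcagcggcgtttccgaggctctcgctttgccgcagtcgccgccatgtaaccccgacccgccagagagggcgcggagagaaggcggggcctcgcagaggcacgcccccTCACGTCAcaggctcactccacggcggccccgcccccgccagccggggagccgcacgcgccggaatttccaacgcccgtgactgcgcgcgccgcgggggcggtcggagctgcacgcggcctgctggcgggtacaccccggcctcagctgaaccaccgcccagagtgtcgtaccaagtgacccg
4933431E20Rik, chr3:107896164-107896463, minus strand: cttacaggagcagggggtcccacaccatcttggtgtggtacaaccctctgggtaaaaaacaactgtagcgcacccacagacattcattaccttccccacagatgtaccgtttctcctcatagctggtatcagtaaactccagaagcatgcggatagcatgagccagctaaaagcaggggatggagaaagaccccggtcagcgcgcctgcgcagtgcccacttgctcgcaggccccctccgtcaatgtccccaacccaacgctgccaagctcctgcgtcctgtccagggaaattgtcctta

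*Trim80* held the window TGACATCA at 2 places, beginning 90 and 47 bases before the start. *Sox5os3* held the complete CRE 50 bases and TGACCTCA 72 bases before its start, and 4933417D19Rik the complete CRE 33 bases before its start. *Sppl2c* and *Spem2* held no such window in these 300 bases. 4933417D19Rik, an lncRNA of chromosome 8, went from 7.46, 7.36 and 7.53 to 8.82, 8.80 and 8.68, a 2.49-fold rise with groups far apart. It was outside the naming rule and was chosen for its CRE. A match is a string of letters, and binding was not measured.

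Base composition differed between the promoters shown. 4933433G15Rik was 73.7% G and C with 41 CG dinucleotides, while the promoters of *Sppl2c* and *Spem2* held 2 each and that of *Trim80* 6. The median number of CG per 100 bases was 1.00 in members raised at least 2-fold, 3.67 in the 8 lowered members, 1.67 over all member promoters and 2.33 over all promoters. Other motifs were searched on both strands. The X-box core GTTGCC, a motif of RFX factors, stood in 24.0% of member promoters and 12.7% of all promoters, with 33.3% in members not past the test and 16.7% in those raised at least 2-fold. The CRE core TGACG stood in 17.3% and 21.0%, with 12.5% in members raised at least 2-fold, 13.7% in all raised and 4 of 8 lowered members, an order opposite to that of the near-matching windows. The MYB motif TAACGG stood in 2.88% and 2.68%, with 2 of 8 lowered, 0 of 51 raised and 1 of 45 members not past the test. The TATA box TATAAA stood in 10.6% and 14.2%.

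Neighbors along the chromosome were compared next. The nearest measured gene was raised for 14 of the 62 raised members, lowered for 11 and not past the test for 37, where 13.3% of all genes were raised and 18.4% lowered. For the 10 lowered members it was raised in 5, lowered in 1 and not past in 4. For the 58 members not past the test it was raised in 12, lowered in 9 and not past in 37, shares similar to those of the raised members. The nearest measured gene could lie far away, as for 4933402J10Rik at 1510 kb. Across the 130 pairs the correlation of the log2 fold changes was r = 0.22 (Spearman's rho 0.01), a description, since pairs are not independent replicates. In 38 members the nearest gene overlapped the member, and whether a probe set inside an overlap reads 1 gene or both was not tested. *Spem2* lies beside *Spem1*, which was raised by 3.68, and *Stpg3* overlaps *Fam166a*, raised by 2.74. 4933400A11Rik overlaps *Mid1*, a gene of microtubule-associated ubiquitin ligase, which had -0.79 (adjusted p = 0.00215) while the pseudogene rose by 3.09. *Sox5* beside *Sox5os3* had 0.84. The nearest genes of 4933416O17Rik and of the lowered 4933440M02Rik were also testis clones, 1700084F23Rik at 3.38 and 4930571K23Rik at 1.65, both raised.

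**Figure D5:**
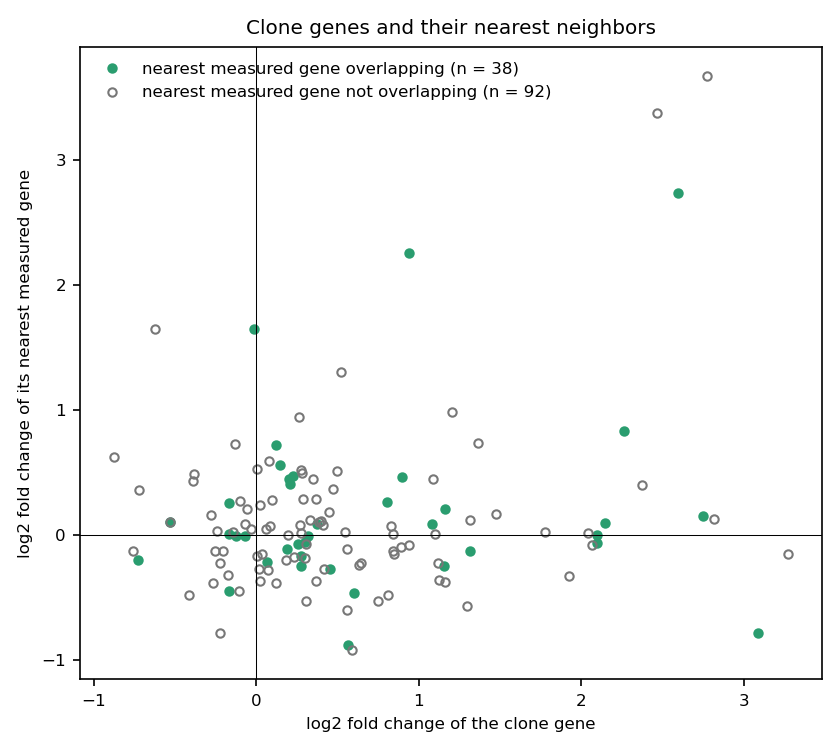
Log2 fold change (cKO minus control) of each member (horizontal axis) and of its nearest measured gene (vertical axis), filled where they overlap (n = 38) and open otherwise (n = 92). Neighbors of raised members were raised in 14 of 62 cases and those of members not past the test in 12 of 58. The pair of which the neighbor rose most was *Spem2* (2.77) and *Spem1* (3.68).

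Head-to-head partners, which start within 1000 bases on the opposite strand, were found for 18 members, all with a promoter entry. None was listed for the 26 members without an entry, among them *Terb2* and *Brd8dc*, whose nearest genes lie 0.08 and 0.69 kb away. The counts therefore may not cover all members. Of the 18 partners 4 were raised, 4 lowered and 10 not past, where 13.3% of all genes were raised and 18.4% lowered. 4933408J17Rik rose by 0.57 while its partner *Snrpf*, which encodes a core protein of the spliceosome, fell by 0.88. 4933406C10Rik fell by 0.38 while *Sypl* rose by 0.49. *Spdye4b* and *Rbak* both fell, by 0.41 and 0.48. For 4933433G15Rik and 4933431E20Rik, the lncRNAs with the largest falls, the partners *Mapk6* and *Gstm5* had -0.12 (adjusted p = 0.315) and -0.05 (adjusted p = 0.764). The partners were named after their values were seen.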

How the data were processed

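Germ cell RNA of 6 mice, 3 in each genotype, was hybridized to Affymetrix Mouse Gene ST arrays, 1 mouse per array. The authors processed the scanner files with RMA in Expression Console, which corrects background, normalizes between arrays and condenses probes into probe sets. As deposited, the 269751 probe sets hold log2 values between 2.11 and 14.33. The version of Expression Console, the annotation release and the genome build were not given in the sources used here. This method compresses changes at low signal, and normalization removes any change in total mRNA. The number of arrays limits the precision, since no depth applies. Litter is not given. In the paper the mice carry consecutive animal numbers, in a separate run for each genotype. Whether litter went with genotype is unknown and was not tested.

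Probe sets with 1 gene symbol (233753, 86.7%) were averaged into 23152 genes. For 11 members, probe sets shared with other symbols were not used, most of them in 4933409K07Rik (32) and 4933402N22Rik (21), so these values are partial. Names, class, chromosome and neighbors came from RefSeq (GRCm38.p6), whose gene coordinates were not set against the array. Groups were compared with limma 3.58.1 in R 4.3.3 (lmFit, eBayes, 2-sided, no covariates, no filter), with Benjamini-Hochberg adjustment over all genes, or over all probe sets for single probe sets. The steps were tested on simulated data. Figures were drawn with matplotlib 3.10.9.

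The members, comparison sets, 11 marker lists and tests were chosen with earlier results of these data known. Named members were the 15 largest rises and 8 largest falls among those called, the 3 with the highest and the 3 with the lowest signal, the 2 nearest the threshold on each side, raised or lowered members with a probe set called the other way, and all members with a current name other than the clone number. Any other member was picked with its values in view. The value of 1 clone of the range is not reported here. Other settings tried were omission of single arrays, the replicate number as a block, centring on array medians, a repeated quantile step, removal of dim probe sets, another summary of a gene (median or brightest probe set), another variance model, array weights, the methods' one-way test and other thresholds.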

Additional observations from a re-analysis of the deposited data

How the results depend on the processing

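The count of raised members was 62 and stayed between 44 and 68 under every alternative run except at least 2-fold between group medians with the methods' one-way test, which gave 30 raised and 0 lowered. With 1 array left out, 54 to 60 members were raised and 8 to 10 lowered, and the median log2 fold change, 0.31 over all arrays, was 0.30 to 0.35. Lowered members numbered 10, and 6 when genes were summarized by the median or, again 6, by the brightest probe set, 4 when the methods' one-way test was adjusted over all genes and 5 at 1.5-fold or more. Centring each array on its median gave 68 raised and 9 lowered members and moved the median of all genes from -0.02 to 0.03. The raised share of calls over all genes went from 42.1% to 51.6% with it, and to 51.3% with the brightest probe set. Leaving out the dimmest 50% of probe sets kept 99 of the members, 47 raised and 12 lowered.

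Same-numbered mice did not deviate together (r = 0.03, 0.10 and -0.06), so the numbers were not taken as pairs. With the replicate block 61 members were raised and 10 lowered. Of the 62 raised members 59 kept their call, 4933436E23Rik being among those that lost it, and *Fam210a* was 1 of 2 that gained one. With the block 121 member probe sets were raised and 5 lowered, against 204 and 23. Without 1 array 119 (without *Mgat1* cKO replicate 1) to 168 were raised and 6 (without the same array) to 13 lowered. Without the dimmest 25% of probe sets 37 were lowered. The cause of these shifts was not tested.

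Signs turned in 8 of the named members. 4933406F09Rik had -0.77 with the median (lowered) and -0.19 with the brightest probe set, 4933407K13Rik -0.20 without the dimmest 50% and -0.0023 with the brightest probe set, and 4933416E03Rik -0.090 with the brightest probe set. Among members not past the test, *Map10* had 0.024 in both of the settings named for 4933407K13Rik, *Cmip* 0.044 with the median and -0.16 to 0.0072 with 1 array left out (the highest without *Mgat1* cKO replicate 3), *Lrrc71* 0.066 and 4933432K03Rik -0.0038 with the median, and 4933400B14Rik -0.030 with the median and -0.0010 (without *Mgat1* cKO replicate 1) to 0.15 with 1 array left out. Over all named members and alternatives, 790 values kept direction and side of the threshold, 51 lost a call, 14 gained one and 13 turned.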

Other observations

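The lncRNA 4933413L06Rik (chromosome 13), chosen after its values were seen, had the widest spread among the members. Its signals were 5.67, 5.86 and 6.13 in control arrays and 6.30, 4.38 and 6.18 in *Mgat1* cKO arrays (SD 1.08). Replicate 2 was the lowest mutant array on each of its 4 probe sets. Its log2 fold change was -0.27 (adjusted p = 0.668).

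Among the lncRNAs, 4933430H16Rik and 4933405D12Rik did not pass as genes but held called probe sets, 1 raised by 0.71 and 2 lowered by up to 1.20. In all, 7 members not past the test held at least 1 called probe set. The pseudogene 4933409K07Rik had the most probe sets, 29, of which 17 were raised and 0 lowered, with values from -0.99 to 1.09.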
